A study of Rattus norvegicus with 38 samples.

Results

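The shared effect of gavage with an EF-containing extract was described across 38 rat livers collected on day 28. The members are all 28 livers whose treatment label includes EF, and they are set against the 10 livers without any extract. The 28 are EF alone (n = 5), EF with PF (EF_PF, n = 5), EF with RD (EF_RD, n = 4) and the same 3 treatments together with an intraperitoneal injection of lipopolysaccharide (5 LPS_EF, 4 LPS_EF_PF and 5 LPS_EF_RD livers). The 10 are control livers (n = 5) and livers of rats given LPS alone (n = 5). All animals were Sprague-Dawley rats, an outbred laboratory strain, and all libraries carry 1 batch label. EF and PF were given into the stomach at 2.5 g/kg each and RD at 200 mg/kg. The labels do not say what EF, PF and RD stand for, so they are named here only by these letters. LPS had been given to 14 of the 28 extract-treated rats and to 5 of the 10 others, so it is balanced over the comparison. Lipopolysaccharide, a component of the outer membrane of gram-negative bacteria, sets off the acute-phase response of the liver. The sources used here give neither its dose nor the age of the rats, and no group received PF or RD without EF.

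The liver clears ingested foreign compounds and makes bile acids from cholesterol. Xenobiotics are oxidised by cytochrome P450 enzymes, whose genes are switched on by receptors such as AhR (Cyp1a genes) and CAR and PXR (Cyp2b and Cyp3a genes). Bile acid synthesis is started by Cyp7a1, and Cyp8b1 decides how much of the product is cholic acid. Cholesterol synthesis is driven by the transcription factor SREBP2, which acts on nearly all genes of the pathway when sterols in the cell are low.

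The sequences upstream of the genes on which the results turn are shown here. They are RefSeq promoters of build GRCr8, each from 250 bases before to 50 bases after the annotated start of the gene. Cyp8b1 and Cyp1a2 are the P450 genes with the smallest pooled p-values among those that were higher with an extract. Hmgcs1 and Msmo1 stand for the sterol synthesis genes, whose response differed with LPS. Capitals mark the letters CCAAT, the core of the CCAAT box, or their reverse complement, and TATAAA, the core of the TATA box, or its reverse complement.
Cyp8b1 (chr8:130457543-130457842, minus strand): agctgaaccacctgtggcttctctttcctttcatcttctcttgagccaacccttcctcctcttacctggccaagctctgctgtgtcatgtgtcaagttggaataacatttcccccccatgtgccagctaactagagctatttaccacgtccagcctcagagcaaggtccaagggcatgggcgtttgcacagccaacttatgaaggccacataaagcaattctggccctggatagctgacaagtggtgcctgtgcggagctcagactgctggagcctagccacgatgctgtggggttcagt
Cyp1a2 (chr8:66978100-66978399, minus strand): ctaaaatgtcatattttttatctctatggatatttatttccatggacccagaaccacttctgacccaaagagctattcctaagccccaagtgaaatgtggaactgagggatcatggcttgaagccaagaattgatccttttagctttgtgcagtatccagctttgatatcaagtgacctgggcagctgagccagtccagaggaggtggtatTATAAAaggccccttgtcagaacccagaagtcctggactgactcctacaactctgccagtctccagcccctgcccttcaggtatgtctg
Hmgcs1 (chr2:53382054-53382353, plus strand): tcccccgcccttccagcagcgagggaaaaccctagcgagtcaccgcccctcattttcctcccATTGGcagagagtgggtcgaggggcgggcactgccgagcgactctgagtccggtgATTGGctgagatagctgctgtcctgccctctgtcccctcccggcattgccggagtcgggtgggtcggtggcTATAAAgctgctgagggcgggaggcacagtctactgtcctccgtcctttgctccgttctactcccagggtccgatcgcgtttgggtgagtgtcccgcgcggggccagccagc
Msmo1 (chr16:29746863-29747162, plus strand): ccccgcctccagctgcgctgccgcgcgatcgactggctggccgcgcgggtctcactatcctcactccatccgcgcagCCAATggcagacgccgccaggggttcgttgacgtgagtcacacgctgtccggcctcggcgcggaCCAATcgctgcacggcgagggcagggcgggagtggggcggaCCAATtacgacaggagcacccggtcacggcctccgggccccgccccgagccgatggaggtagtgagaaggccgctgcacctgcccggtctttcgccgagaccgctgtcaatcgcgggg
The Cyp8b1 window held none of these letters, the Cyp1a2 window held 1 TATAAA, the Hmgcs1 window held 2 CCAAT and 1 TATAAA, and the Msmo1 window held 3 CCAAT. On either strand these 5 letters were found in 13 of the 16 sterol synthesis promoters in the table (81.2%), in 1 of 11 promoters of the 12 genes with the highest pooled fold change, and in 5 of 8 promoters of the 12 with the lowest. Of all 33469 promoters of this length, 37.5% held it. GCGTG, the core of the AhR response element, was found on either strand in 9 of the 16 sterol promoters, 4 of the 11 and 3 of the 8, against 29.7% of all promoters. These matches describe letters in a window and do not show binding.

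Each library held 19716622 to 35835012 counted read pairs. The first principal component of log2 CPM took 40.8% of the variance and the second 8.37%. Levels are given in CPM (counts scaled with TMM, the trimmed mean of M values, so that libraries of different depth can be compared), and changes as log2 fold change ± its standard error (SE). Adjusted p-values come from edgeR's quasi-likelihood test, and a gene is "called" at an adjusted p under 0.05. The labels name hepatocytes, and all 16 hepatocyte markers were present, with a summed level of 142704 to 222572 CPM in the EF-containing livers and 144316 to 231674 CPM in the others.

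A set of 5 libraries stood apart and were left out together in a second fit. Control 5 and LPS 3 held exocrine pancreas markers at a sum of 3697 and 2116 CPM, EF_RD 1 held 193 CPM, and the other 35 libraries held 37.6 to 83.3 CPM. Skeletal muscle markers summed to 5184 CPM in EF_RD 1 and 511 CPM in LPS 3, against at most 3.63 CPM in the other 36. LPS_EF 7 and LPS_EF_RD 6 went against their labels: A2m, an acute-phase protease inhibitor of the rat, had 5.84 and 6.9 CPM there, while the other 12 EF-containing livers after LPS and the 5 LPS livers held 84.2 to 344 CPM. Without LPS, A2m had 19 CPM in EF_RD 1 and 17.2 CPM in EF 1, and at most 3.51 CPM in the other 17 libraries.

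**Figure D1:**
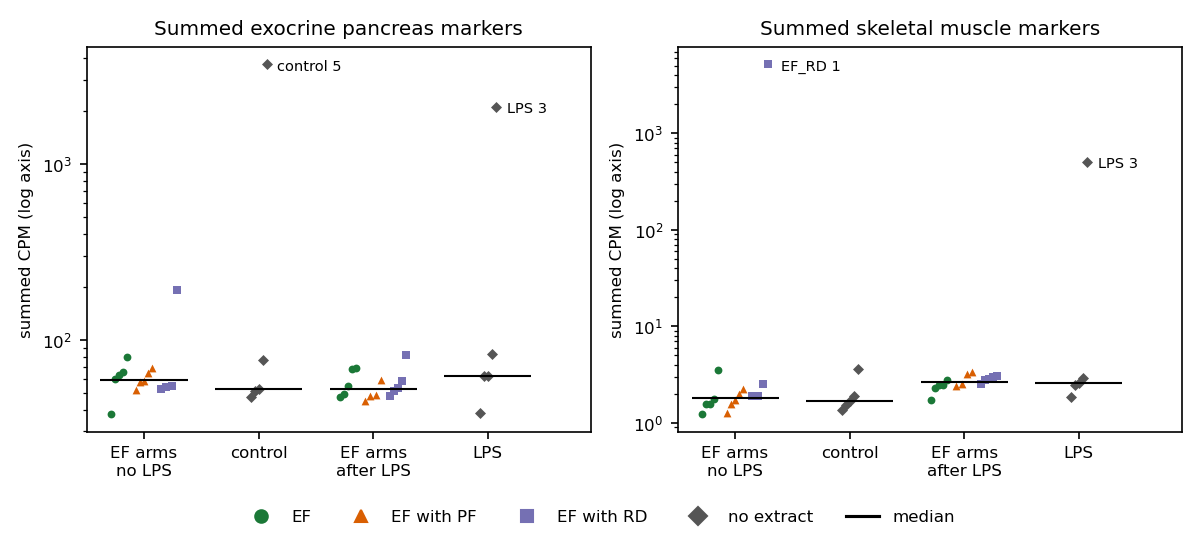
Summed CPM (log axis) of 17 exocrine pancreas markers and 18 skeletal muscle markers in each of 38 livers, by group, with symbols for the extract and a line at the median. Control 5 at 3697 CPM and LPS 3 at 2116 CPM stand above all others for pancreas, and EF_RD 1 at 5184 CPM and LPS 3 at 511 CPM for muscle.

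Gavage with an EF-containing extract changed a small set of genes by modest amounts. With LPS as a covariate, 346 of 14786 genes were called between the 28 EF-containing livers and the 10 without, which is 2.34% of the genes tested. Of these, 163 were higher (1.1%) and 183 lower (1.24%). The median size of the log2 fold change among called genes was 0.43, and 2-fold or more was reached by 38 higher and 30 lower genes. The 12 highest named genes included 4 drug-metabolising P450 genes and the bile acid enzyme Cyp8b1, and the 12 lowest included cyclin D1, a glycogen-targeting phosphatase subunit and an intestinal-type cadherin. In bulk tissue, fewer cells of a type and less RNA per cell cannot be told apart.

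Without the 5 libraries the calls numbered 432 of 14848 genes (2.91%), with 189 higher and 243 lower. In both fits 266 genes were called. The lowest end of the range moved most. Of 12 genes called at least 4-fold lower, 1 was called without the 5 libraries, and of 7 at least 4-fold higher, 5 were. In all, 10 of the 11 exocrine pancreas markers tested were called lower, among them the digestive enzymes Cel (−7.41 ± 0.98, adjusted p = 1.41e-05), Cela2a (−5.45 ± 0.73, adjusted p = 1.41e-05), Cpb1 (−6.60 ± 0.88, adjusted p = 1.41e-05) and Prss1 (−7.64 ± 1.06, adjusted p = 2.11e-05). By voom 0 of the 11 were called, and DESeq2 gave no adjusted p for 10 and no call for the other. Cel had 487 CPM in control 5 and 273 CPM in LPS 3, against at most 12.7 CPM in any of the other 36 livers. Without the 5 libraries none of the 7 markers that could still be tested was called. The 12 highest and 12 lowest genes named from here on were called both with and without the 5 libraries.

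**Figure D2:**
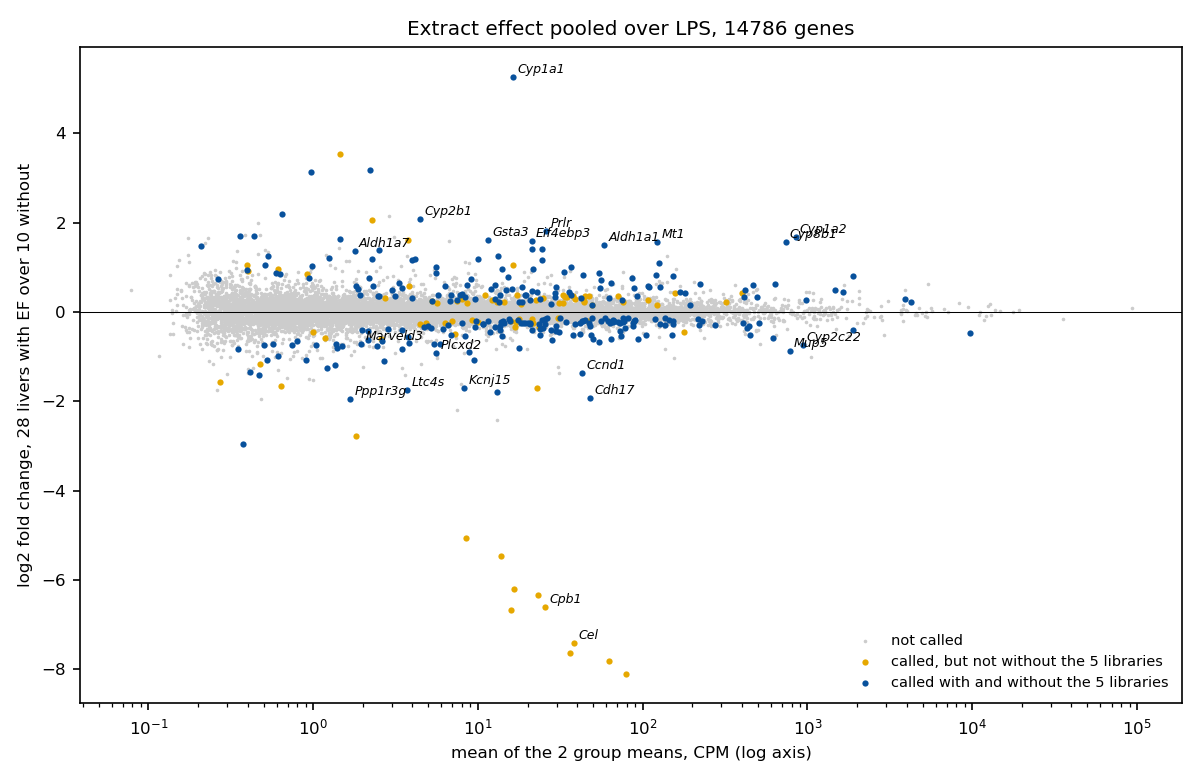
Log2 fold change of 28 EF-containing livers over 10 without an extract, with LPS as a covariate, against the mean level (log axis) for 14786 genes, grey where not called. Blue genes were called with and without the 5 libraries that stand apart, and yellow genes only with them; the digestive enzymes at the bottom, such as Cel at −7.41, are yellow.

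Cyp8b1 (rn6 chromosome 8, 130548418 to 130550388), the sterol hydroxylase needed to make cholic acid, had the smallest p-value of the named genes in the pooled comparison. It ran from 933 to 1702 CPM (median 1337) in the 14 EF-containing livers without LPS, against 460.2, 427, 369.8, 606 and 303 CPM in the control livers. After LPS it ran from 549.6 to 1502 CPM (median 786) in the 14 EF-containing livers, against 403, 288, 281, 203 and 339 CPM in the LPS livers. In the livers without LPS and in those after LPS, the 2 LPS strata, every extract-treated liver lay above every liver without extract. The pooled change was 1.57 ± 0.13, adjusted p = 4.75e-10, a 2.98-fold higher level, and it was called in both strata (1.65 ± 0.19, adjusted p = 3.54e-06 without LPS, and 1.50 ± 0.19, adjusted p = 2.82e-05 after LPS). Set against its own control or LPS group, each of the 6 treatments was called, from 1.32 in LPS_EF_RD to 1.75 in EF_RD. The test among the treatments gave no call for it (adjusted p = 0.639). Cyp8b1 was named by its change in these same livers, so its separation in each stratum is description only. The same holds for the separations of other genes given below.

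Ackr2 (rn6 chromosome 8, 130526521 to 130543566), a decoy receptor that removes inflammatory chemokines, lies beside Cyp8b1 on the same chromosome, and the gene was singled out after its values were seen. Ackr2 had 3.7 to 8.73 CPM (median 5.95) in EF-containing livers without LPS, against 2.05, 2.42, 2.88, 3.09 and 1.56 CPM in control livers. After LPS the level was 2.97 to 9.45 CPM (median 4.83) in EF-containing livers, against 2.65, 1.66, 2.81, 2.61 and 2.62 CPM in LPS livers. As for Cyp8b1, the groups did not overlap in either stratum, and Ackr2 was called pooled (1.17 ± 0.15, adjusted p = 4.24e-06), without LPS (1.37 ± 0.20, adjusted p = 0.000114) and after LPS (0.98 ± 0.20, adjusted p = 0.0175). Of all genes tested, 2.34% were called in the pooled comparison, 1.26% without LPS and 0.149% after LPS. How many of all genes have groups that do not overlap was not counted. The separation of Ackr2, a gene picked by these values, is therefore description only. The counts carry no strand, and the part of reads shared with the far more abundant Cyp8b1 was not tested.

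Other genes of bile acid synthesis and transport moved less. Of 18 tested, 3 were called higher and 0 lower (1.1% and 1.24% of all genes), with a median of 0.17, against 0.005 over all 14786 genes. Beside Cyp8b1 these were Acox2, a peroxisomal oxidase that shortens the bile acid side chain (0.34 ± 0.08, adjusted p = 0.00955), and Slc27a5, which activates bile acids for conjugation (0.64 ± 0.16, adjusted p = 0.0258). Without the 5 libraries 3 were called higher and 4 lower, and the lower ones were the repressor Nr0b2, the conjugating enzyme Baat (adjusted p = 0.0494), the canalicular exporter Abcc2 (adjusted p = 0.0266) and the FGF receptor Fgfr4 (adjusted p = 0.0398). On all libraries DESeq2 called 6 of the 18 and voom 4. The call of Slc27a5 was lost without control 7, LPS 2 or LPS 4, which gave an adjusted p of up to 0.0617. Cyp7a1, the rate-limiting enzyme, had 99.3 to 1017 CPM (median 193) in EF-containing livers without LPS, against 145, 102, 151, 156 and 35.6 CPM in control livers. Its groups overlapped, and it was not called (0.97 ± 0.35, adjusted p = 0.131). Nr0b2, the repressor known as SHP that acts on Cyp7a1 and Cyp8b1, was at 18.3 ± 14 CPM in the EF-containing livers and 42.9 ± 24.2 CPM in the others (SD, n = 28 and 10). Its change of −1.22 ± 0.35, adjusted p = 0.0514 missed the threshold, and without the 5 libraries it was −1.31 (adjusted p = 0.0366). Acnat2, a peroxisomal relative of the enzyme that joins bile acids to amino acids, was lower in both strata and was also singled out after its values were seen. It had 275 to 487 CPM (median 412) in EF-containing livers without LPS, against 529.9, 608, 491, 622 and 646 CPM in control livers, with no overlap. After LPS it had 256 to 461 CPM (median 325) in EF-containing livers, against 511, 449, 467, 507 and 467 CPM in LPS livers, where LPS_EF_RD 4 at 461 CPM lay within the range of the LPS livers (−0.53 ± 0.11, adjusted p = 0.013). The pooled change was −0.52 ± 0.07, adjusted p = 2.52e-05.

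Among the drug-metabolising genes, Cyp1a2 and Cyp1a1, the textbook targets of AhR, were higher with an extract. Cyp1a2 (rn6 chromosome 8, 62451360 to 62458244) ran from 776 to 3335 CPM (median 1274) in the EF-containing livers without LPS, against 315, 419.9, 470.3, 337 and 329.8 CPM in control livers. With LPS it ran from 369 to 1532 CPM (median 895) in EF-containing livers, against 508, 426, 316, 328 and 424 CPM in LPS livers. Without LPS all 14 extract-treated livers were above all control livers, and after LPS 13 of 14 were above all LPS livers. The pooled change was 1.68 ± 0.24, adjusted p = 2.52e-05, and the call held without LPS (2.13 ± 0.33, adjusted p = 0.000183) but missed the threshold after LPS (1.29 ± 0.31, adjusted p = 0.0747). The interaction with LPS was not called (−0.84 ± 0.41, adjusted p = 0.974).

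The 3 EF-containing treatments did not raise the Cyp1a genes alike. Cyp1a1 (rn6 chromosome 8, 62472087 to 62478122) averaged 127 ± 67.2 CPM in EF_PF (SD, n = 5) and 49.5 ± 19.1 CPM in LPS_EF_PF (SD, n = 4). It averaged 2.92 ± 2.21 CPM in EF, 5.07 ± 2.51 CPM in EF_RD, 3.23 ± 1.66 CPM in LPS_EF, and 2.07 ± 1.87 CPM in LPS_EF_RD, against 0.942 ± 0.596 CPM in control and 0.601 ± 0.328 CPM in LPS livers. Every liver given PF with EF lay above every other liver of the study, as the levels of 8 genes by library show. The test among the treatments called Cyp1a1 (adjusted p = 1.64e-10, and 6.98e-09 without the 5 libraries) and Cyp1a2 (adjusted p = 0.0124). Cyp1a1 was called against its own group in EF_PF (7.09 ± 0.63, adjusted p = 1.22e-08), LPS_EF_PF (6.36 ± 0.64, adjusted p = 2.94e-07) and EF_RD (2.45 ± 0.62, adjusted p = 0.0357). It was not called in EF (1.64 ± 0.62, adjusted p = 0.243), LPS_EF (2.43 ± 0.64, adjusted p = 0.125) or LPS_EF_RD (1.74 ± 0.67, adjusted p = 0.509). The pooled Cyp1a1 value of 5.26 ± 1.10, adjusted p = 0.00503 thus averages over treatments that differ, and with voom the pooled call was lost. Cyp1a2 averaged 2584 ± 529 CPM in EF_PF, 1208 ± 391 CPM in EF and 996 ± 229 CPM in EF_RD, against 374 ± 67.6 CPM in control livers (SD). After LPS it averaged 1258 ± 183 CPM in LPS_EF_PF, 953 ± 269 CPM in LPS_EF and 773 ± 422 CPM in LPS_EF_RD, against 400.2 ± 79.2 CPM in LPS livers, and 5 of the 6 treatments were called, all but LPS_EF_RD.

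Of 8 AhR-related genes tested these 2 were the only ones called, both higher, and the list had a median of 0.24. Of all genes tested, 2.34% were called. Nqo1, a quinone reductase, had a change of 0.57 ± 0.19, adjusted p = 0.0958. Tiparp, an AhR target that feeds back on the receptor, had a change of −0.15 ± 0.07, adjusted p = 0.259, and Cyp1b1 one of 0.17 ± 0.40, adjusted p = 0.9. The receptor Ahr itself had a change of 0.30 ± 0.17, adjusted p = 0.389.

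**Figure D3:**
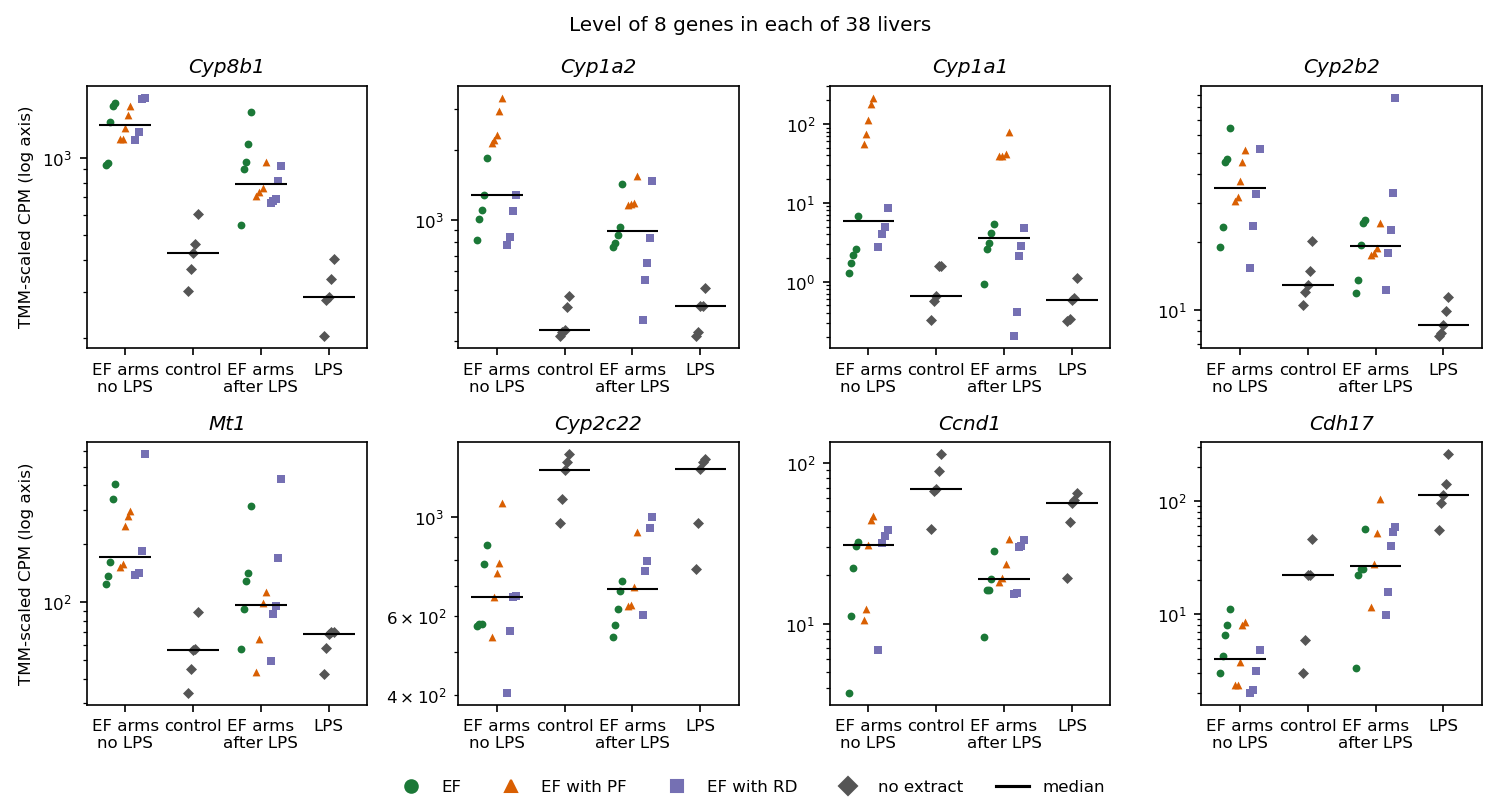
TMM-scaled CPM (log axis) of 8 genes in each of 38 livers, with extract-treated livers left of the livers without extract in each LPS stratum, symbols for the extract and a line at the median. Cyp8b1 is separated in both strata, Cyp1a1 has at least 39.1 CPM in the 9 livers given PF with EF and at most 8.58 CPM in the others, and Cyp2c22, Ccnd1 and Cdh17 are lower with an extract.

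The Cyp2b genes, known targets of CAR and of phenobarbital in the rat, were higher as well. Cyp2b2 (rn6 chromosome 1, 83103925 to 83119578) ran from 15.3 to 64.5 CPM (median 35) in EF-containing livers without LPS, against 12.9, 10.5, 14.9, 12 and 20.3 CPM in control livers. After LPS it ran from 11.9 to 87.7 CPM (median 19.1) in EF-containing livers, against 7.84, 9.85, 11.4, 7.6 and 8.57 CPM in LPS livers. The groups overlapped without LPS and not after LPS, and the pooled change was 1.42 ± 0.25, adjusted p = 0.000569. The near-identical Cyp2b1 averaged 7.2 ± 6.9 CPM in EF-containing livers and 1.74 ± 1.8 CPM in the others (SD, n = 28 and 10; 2.09 ± 0.49, adjusted p = 0.0124), a call that voom did not make. Reads shared by the 2 copies cannot be split, so the value of each is uncertain. Cyp2c6v1, an abundant P450 of the Cyp2c family, was the third CAR and PXR target called (0.48 ± 0.09, adjusted p = 0.00198). Of 20 such genes tested, 3 were called higher and 0 lower, with a median of 0.34. Of all genes tested, 1.1% were called higher and 1.24% lower. Without the 5 libraries 5 of the 20 were called, all higher, against 2.91% of all genes. The PXR targets Cyp3a2 (−0.25 ± 0.19, adjusted p = 0.57) and Cyp3a9 (0.28 ± 0.19, adjusted p = 0.534) were not called. Nor, on all libraries, were Cyp3a23/3a1 (0.66, adjusted p = 0.327), Cyp3a18 (−0.72, adjusted p = 0.0849) and Cyp3a62 (−0.38, adjusted p = 0.259), which changed by more and in both directions.

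Among hepatocyte markers 2 of 16 were called, both higher, against 2.34% called of all genes tested. Cyp2e1, the ethanol-oxidising P450, averaged 2409 ± 807 CPM in EF-containing livers and 1363 ± 348 CPM in the others (0.81 ± 0.15, adjusted p = 0.00198), and Apoa2, an apolipoprotein of HDL, changed by 0.61 ± 0.13, adjusted p = 0.0051. Cyp2c22 went the other way. It ran from 405 to 1071 CPM (median 661) in EF-containing livers without LPS, against 1270.1, 967, 1323, 1094 and 1379 CPM in control livers, and from 540.4 to 996 CPM (median 689) after LPS, against 1324, 1279, 764, 969 and 1343 CPM in LPS livers. In all, 13 of 14 livers without LPS and 10 of 14 after LPS lay below the range of the matching livers without extract, and the pooled change was −0.74 ± 0.11, adjusted p = 2.83e-05. Members of the Cyp2c family are close in sequence, and their counts are uncertain.

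Other genes of detoxification and retinoid metabolism were among the 12 with the highest pooled fold change. Gsta3, a glutathione transferase, averaged 17.3 ± 8.84 CPM in EF-containing livers and 5.84 ± 4.76 CPM in the others (1.60 ± 0.29, adjusted p = 0.00117). Aldh1a1, a retinal dehydrogenase, averaged 86.2 ± 29.3 CPM in EF-containing livers and 30.6 ± 28.5 CPM in the others (1.49 ± 0.30, adjusted p = 0.00319), and its near copy Aldh1a7 changed by 1.37 ± 0.30, adjusted p = 0.00895. Among livers without an extract, Aldh1a1 was highest in control 5 at 80.4 CPM and LPS 3 at 84 CPM, the libraries with pancreas RNA, and at most 34.2 CPM in the other 8. Without the 5 libraries its change was 2.26 (adjusted p = 3.86e-06). Acsm2a, a mitochondrial medium-chain acyl-CoA synthetase with close copies, changed by 1.41 ± 0.35, adjusted p = 0.0211. Ces2a, a carboxylesterase with close copies that was singled out as 1 of the calls after LPS, changed by 0.83 ± 0.15, adjusted p = 0.00143 pooled and by 1.07 ± 0.22, adjusted p = 0.0175 after LPS.

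Nrf2 targets gave 2 calls, in opposite directions, while 2.34% of all genes tested were called. Of 19 tested 1 was higher, Gsta3, and 1 was lower, with a median of 0.02. The lower one was Gclm, the modifier subunit of the enzyme that limits glutathione synthesis, at 60.1 ± 20.8 CPM in EF-containing livers and 87 ± 20.1 CPM in the others (−0.55 ± 0.14, adjusted p = 0.0288). Its call was lost without control 7 or without LPS 2, with an adjusted p of 0.105 without LPS 2.

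Metallothionein Mt1, which binds zinc and copper, was higher with an extract. It ran from 123 to 580.0 CPM (median 171) in EF-containing livers without LPS, against 56.1, 57.1, 45.1, 88.7 and 33.9 CPM in control livers. With LPS it ran from 43.5 to 433 CPM (median 96.6) in EF-containing livers, against 68.4, 58, 42.4, 70.2 and 70.1 CPM in LPS livers. The top values after LPS, 433 CPM in LPS_EF_RD 6 and 315 CPM in LPS_EF 7, come from the libraries with low A2m for their label. The rest of the EF-containing livers after LPS held 43.5 to 169 CPM. The groups were separate without LPS and overlapped after LPS, and the pooled change was 1.57 ± 0.32, adjusted p = 0.00374. Mt2A, the neighbouring and closely related gene, was called without LPS (2.61 ± 0.47, adjusted p = 0.00173) but neither after LPS (0.34 ± 0.41, adjusted p = 0.899) nor pooled (1.26 ± 0.37, adjusted p = 0.0584). The 2 genes are close in sequence, so the size of either change is uncertain. The zinc importers Slc39a10 (−0.54 ± 0.13, adjusted p = 0.0178) and Slc39a4 (−0.50 ± 0.12, adjusted p = 0.02) were lower, and the call of Slc39a4 was lost without control 3, control 7 or LPS 5 (highest adjusted p = 0.0587). With Mt1 these were the 3 calls among 15 genes of metal binding and transport tested, against 2.34% called of all genes.

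A further pair of genes stood among the 12 highest. Eif4ebp3, a repressor of cap-dependent translation, averaged 31.9 ± 24.8 CPM in EF-containing livers and 10.7 ± 5.75 CPM in the others (1.58 ± 0.31, adjusted p = 0.00315). Prlr, the prolactin receptor, averaged 40.5 ± 24.8 CPM in EF-containing livers and 11.3 ± 9.93 CPM in the others (1.82 ± 0.50, adjusted p = 0.0409). Leaving out any of 14 single libraries ended the Prlr call, and without LPS 2 the adjusted p was 0.0795.

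The genes that were lower included Ccnd1 and Ppp1r3g. Ccnd1 (rn6 chromosome 1, 218090750 to 218100447), cyclin D1, which carries cells into the division cycle, ran from 3.72 to 46.4 CPM (median 30.7) in EF-containing livers without LPS, against 66.4, 113, 38.9, 89.2 and 68.5 CPM in control livers. After LPS it ran from 8.2 to 33.7 CPM (median 19.1) in EF-containing livers, against 19.3, 64.7, 55.9, 59 and 42.7 CPM in LPS livers. Below the whole control range lay 12 of 14 livers, and below the whole LPS range 8 of 14, and the pooled change was −1.36 ± 0.25, adjusted p = 0.00113. It was the 1 gene called of 25 cell cycle and replication genes, whose median was −0.05. Ppp1r3g, a subunit that brings a phosphatase to glycogen, had 0 to 1.73 CPM (median 0.614) in EF-containing livers without LPS, against 3.4, 8.78, 3.21, 6.22 and 2.22 CPM in control livers. These groups did not overlap (−2.66 ± 0.39, adjusted p = 9.03e-05), while after LPS the gene had 0.138 to 1.09 CPM (median 0.367) in EF-containing livers, against 0.555, 1.02, 0.407, 0.39 and 1.52 CPM in LPS livers, and was not called (−0.91 ± 0.45, adjusted p = 0.556). It was the 1 gene called of 18 in gluconeogenesis and glycogen, whose median was −0.03. In lists of this size 1 call lies near the 2.34% called of all genes tested. The pooled medians average over strata of opposite sign. Of the 25 cell cycle genes, 4 were above 0 without LPS (median −0.18) and 16 after LPS (median 0.19). Of the 18 gluconeogenesis and glycogen genes, 6 were above 0 without LPS (median −0.21) and 12 after LPS (median 0.11). Of all 14786 genes, 7658 and 7515 were above 0.

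Igf1, the growth factor that the liver releases under growth hormone, ran from 1351 to 2815 CPM (median 1969) in EF-containing livers without LPS, against 3136, 3024, 2436, 3127 and 2832 CPM in control livers. Of these 14, 13 lay below all control livers (−0.56 ± 0.12, adjusted p = 0.0127). After LPS the levels were 1008 to 1738 CPM (median 1263) in EF-containing livers, against 1263, 1407, 1406, 1629 and 1526 CPM in LPS livers, which overlapped (−0.21 ± 0.13, adjusted p = 0.655), and the pooled change was −0.39 ± 0.09, adjusted p = 0.0127. In the list of 18 growth hormone, IGF and sex-biased genes Prlr was called higher and Igf1 lower, against 2.34% called of all genes tested. Cyp2c11, the male-specific P450 of the rat, had a change of −0.72 ± 0.24, adjusted p = 0.104.

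Cdh17 (rn6 chromosome 5, 25354187 to 25443675), the cadherin of liver and intestine, ran from 2.03 to 11.1 CPM (median 4.04) in EF-containing livers without LPS, against 3.03, 46.2, 21.9, 22.2 and 5.96 CPM in control livers. With LPS it ran from 3.37 to 104 CPM (median 26.5) in EF-containing livers, against 257, 139.7, 55.2, 112 and 95.1 CPM in LPS livers. The groups overlapped in both strata, with 5 of 14 livers below the control range and 11 of 14 below the LPS range, and the pooled change was −1.93 ± 0.34, adjusted p = 0.000574. Ltc4s, the synthase of cysteinyl leukotrienes, averaged 1.73 ± 1.27 CPM in EF-containing livers and 5.71 ± 3.09 CPM in the others (−1.75 ± 0.30, adjusted p = 0.000499). Kcnj15, an inward rectifier potassium channel, averaged 3.59 ± 2.97 CPM in EF-containing livers and 13 ± 15.5 CPM in the others (−1.70 ± 0.35, adjusted p = 0.00478), with control 7 alone at 54.9 CPM. Without control 7 the adjusted p of Kcnj15 was 0.0494.

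The remaining 7 of the 12 lowest were changed by less than 1 on the log2 scale. They were Plcxd2 (−0.92 ± 0.16), the major urinary protein gene Mup5 (−0.87 ± 0.22), the dynein heavy chain gene Dnah9 (−0.84 ± 0.17), Cyp2c22, the corepressor gene Tle3 (−0.71 ± 0.16), the sulfonylurea receptor gene Abcc8 (−0.71 ± 0.18) and the tight junction gene Marveld3 (−0.71 ± 0.16). Mup5 belongs to a family of near-identical copies and is uncertain. The call of Mup5 was lost without control 4, LPS 2 or LPS 5 (highest adjusted p = 0.0791), that of Abcc8 without control 3, control 7 or LPS 2 (0.0747), and that of Tle3 without control 6 (0.0566).

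**Figure D4:**
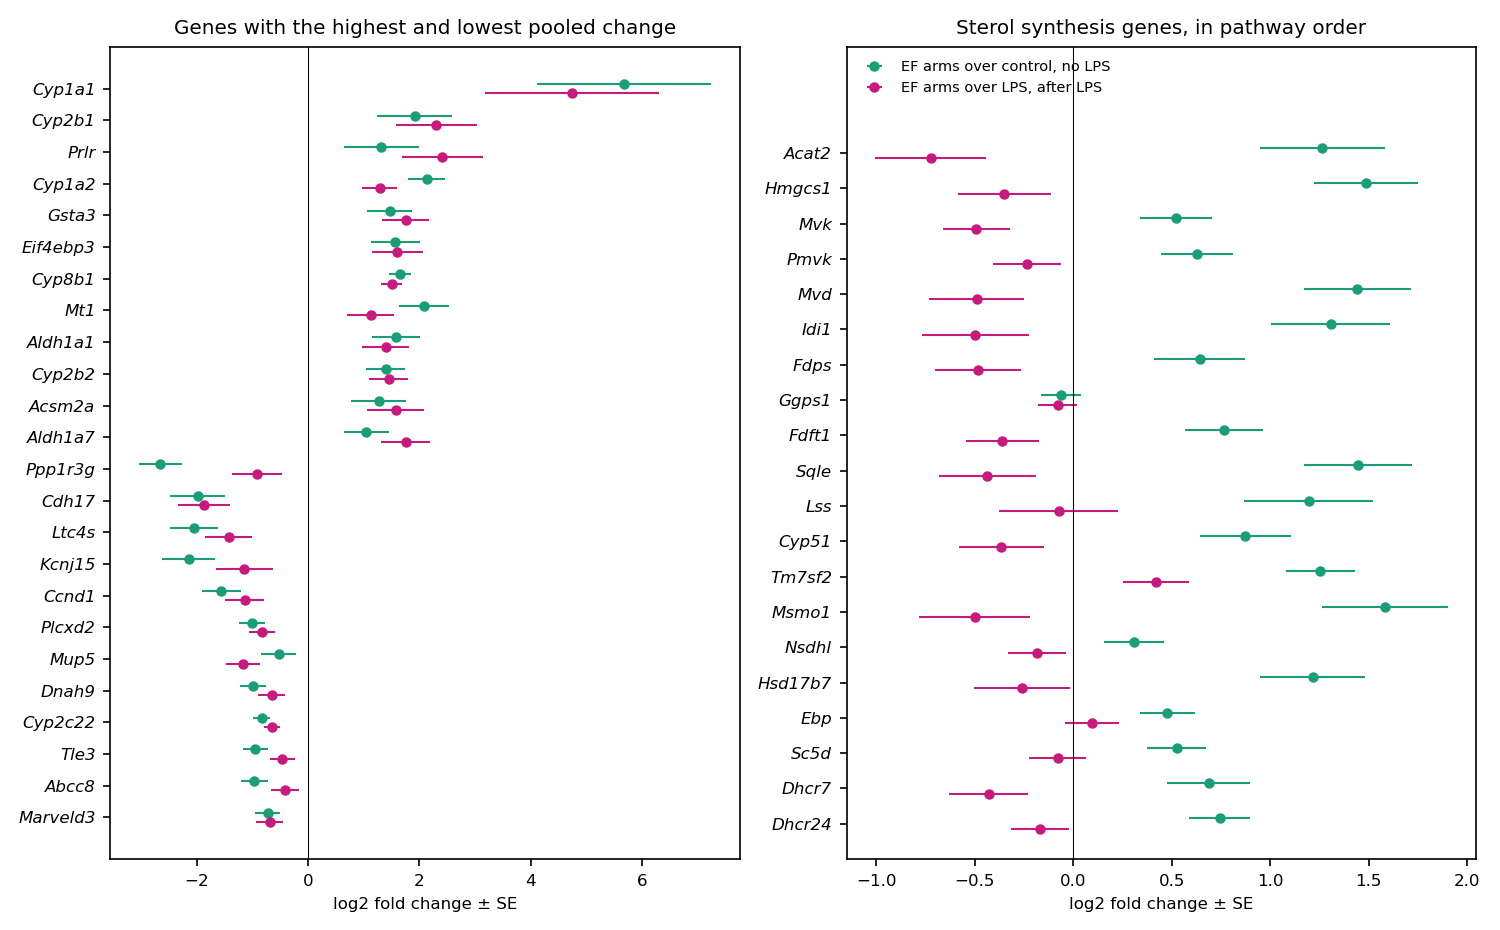
Log2 fold change with its SE of EF-containing livers over control livers without LPS (green) and over LPS livers after LPS (magenta), for the 12 highest and 12 lowest named genes (left) and 20 of the sterol synthesis genes in pathway order (right). On the left both effects have 1 sign for every gene, which the choice of these genes by their pooled change favours. On the right, 19 of 20 genes are above 0 without LPS and 18 of 20 are below 0 after LPS. That list was not chosen by the pooled change, but earlier results of these data were known when it was chosen.

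Split by LPS, the same extracts gave different numbers of calls with the same numbers of livers. Without LPS, 186 genes (1.26%) were called between the 14 EF-containing and 5 control livers, 100 higher (0.676%) and 86 lower (0.582%). After LPS, 22 genes (0.149%) were called between 14 EF-containing and 5 LPS livers, 6 higher (0.0406%) and 16 lower (0.108%), and 8 of the 22 were exocrine pancreas markers. Without the 5 libraries 189 and 40 genes were called, and 12 of the 22 were kept. In both strata 14 genes were called, of which 8 were pancreas enzymes, 3 have only provisional names, and the other 3 were Cyp8b1, Ackr2 and Acnat2. The count without LPS depended on single controls: it was 89 without control 4, 116 without control 7 and 120 without control 6. After LPS it was 12 without LPS 2, 13 without LPS 4 and 40 to 57 without any 1 of 8 extract-treated livers.

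Of the 10 genes whose extract effect differed with LPS, 5 were genes of cholesterol synthesis. Of 21 sterol synthesis genes tested, 12 were higher and 0 lower without LPS, with a median log2 fold change of 0.87, while 0.676% of all genes were called higher there. After LPS 0 were called by edgeR (6 at an unadjusted p under 0.05), 0 by DESeq2 and 0 by voom, with a median of −0.35, and without the 5 libraries the counts were again 12 and 0. Pooled over LPS only Tm7sf2, a sterol reductase, was called (0.81 ± 0.14, adjusted p = 0.000512). The interaction called 10 genes (0.0676%), all with a lower effect after LPS. Of these 10, 5 belong to the 21 (Mvd, Hmgcs1, Sqle, Msmo1 and Acat2), 1 is the transcription factor Srebf2, and 1 is Mmab, an enzyme of cobalamin metabolism. The other 3 were Slc13a3, a dicarboxylate carrier, and 2 genes with provisional names.

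Hmgcs1 (rn6 chromosome 2, 52427351 to 52445082), which makes the precursor of mevalonate, ran from 686 to 2577 CPM (median 1211) in EF-containing livers without LPS, against 446, 397, 548, 443 and 568 CPM in control livers. After LPS it ran from 634 to 1959 CPM (median 984) in EF-containing livers, against 1626, 1271, 894, 1651 and 1626 CPM in LPS livers. All 14 treated livers without LPS were above all controls (1.49 ± 0.26, adjusted p = 0.00145), while after LPS the groups overlapped (−0.35 ± 0.24, adjusted p = 0.725). The interaction was −1.83 ± 0.35, adjusted p = 0.0269. Msmo1 (rn6 chromosome 16, 26859441 to 26875880), a sterol methyl oxidase, ran from 169.7 to 916 CPM (median 347) with an extract and without LPS, against 145, 88.4, 157, 126 and 126 CPM in control livers. After LPS its levels were 176 to 647 CPM (median 342) with an extract, against 686, 489, 272, 587 and 487 CPM in LPS livers. Again the groups were separate without LPS and overlapped after it (interaction −2.08 ± 0.42, adjusted p = 0.033).

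Mvd, a decarboxylase late in the mevalonate part, ran from 14.8 to 47.6 CPM (median 26.3) in EF-containing livers without LPS, against 11.5, 8.05, 11.3, 10.4 and 9.13 CPM in control livers, and from 12.5 to 46.4 CPM (median 22.8) after LPS, against 46.6, 31.7, 18.2, 40.1 and 44.4 CPM in LPS livers (interaction −1.93 ± 0.36, adjusted p = 0.0269). Sqle, squalene epoxidase, ran from 56.1 to 220.2 CPM (median 103) in EF-containing livers without LPS, against 40.7, 28.9, 50.4, 44.4 and 37.1 CPM in control livers, and from 57.5 to 182 CPM (median 105) after LPS, against 207, 137, 86.8, 165 and 145 CPM in LPS livers (interaction −1.88 ± 0.36, adjusted p = 0.0269). Srebf2, which encodes SREBP2, ran from 63 to 87.7 CPM (median 77.1) in EF-containing livers without LPS, against 49.8, 39.5, 45, 42.1 and 56.1 CPM in control livers, and from 60.1 to 103 CPM (median 78.9) after LPS, against 72.6, 90.7, 62.3, 87 and 81.3 CPM in LPS livers (interaction −0.69 ± 0.14, adjusted p = 0.0425). All 3 were separate from the controls without LPS and overlapped with the LPS livers after LPS. By treatment, Hmgcs1 without LPS was called in EF (1.89 ± 0.27, adjusted p = 0.000131) and EF_PF (1.42 ± 0.26, adjusted p = 0.00467) and not in EF_RD (0.86 ± 0.27, adjusted p = 0.0984), but the test among the treatments gave no call for it (adjusted p = 0.272).

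The interaction rests on the groups without extract, which hold 5 livers each. The count by edgeR was 0 without control 4, control 6, LPS 1, LPS 4 or LPS 5, with 650 to 770 genes at an unadjusted p under 0.05, and with the 5 libraries left out it was 15. On all libraries voom called 8 and DESeq2 28. With the replicate number as a block edgeR called 0, with 703 genes at an unadjusted p under 0.05. Without control 4 the adjusted p of the Hmgcs1 interaction was 0.112.

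The sterol exporters were called in the pooled fit and in neither LPS stratum. Abcg5 and Abcg8, which together pump sterols into bile, averaged 43.3 ± 15.4 CPM and 34.1 ± 14.7 CPM in EF-containing livers and 23.2 ± 8.27 CPM and 15.2 ± 7.9 CPM in the others (SD, n = 28 and 10). The pooled changes were 0.89 ± 0.21, adjusted p = 0.0127 for Abcg5 and 1.17 ± 0.28, adjusted p = 0.0133 for Abcg8. Within the strata Abcg8 had 1.07 ± 0.39, adjusted p = 0.205 without LPS and 1.28 ± 0.40, adjusted p = 0.252 after LPS, so neither was called. With Srebf2 (0.35 ± 0.09, adjusted p = 0.0278) they were the 3 calls among 17 genes of SREBP2 regulation and LDL uptake. Of all genes tested, 2.34% were called. The pooled call of Srebf2 was lost without the 5 libraries (adjusted p = 0.074) and without control 3, 4, 5 or 6.

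Few genes of fat metabolism were called by edgeR, which called 2.34% of all genes tested. Of 32 PPAR alpha and fatty acid oxidation genes tested 1 was called, Cd36, a fatty acid carrier (1.18 ± 0.33, adjusted p = 0.0455), which lost its call in 16 of the 38 single omissions. The list's median was 0.22, with 31 of 32 values above 0, against 7624 of all 14786 genes. At an unadjusted p under 0.05, 16 of the 32 passed, and DESeq2 called 8 and voom 0. By edgeR without the 5 libraries 1 of 33 was called. Of 22 fatty acid synthesis genes 1 was called, Aacs, which turns ketone bodies into lipid precursors (1.06 ± 0.28, adjusted p = 0.0289, and adjusted p = 0.0817 without the 5 libraries). Aacs ran from 12.9 to 56.7 CPM (median 26.3) in EF-containing livers without LPS, against 4.52, 4.64, 8.65, 9.93 and 8.82 CPM in control livers, with no overlap (1.93 ± 0.36, adjusted p = 0.00264). After LPS it overlapped (0.38 ± 0.33, adjusted p = 0.82). With the 5 libraries left out, the list held 1 higher call, Gpam, and 3 lower, Srebf1, Acacb and Fads2. Of 22 amino acid and urea cycle genes the tyrosine-degrading Hpd (0.45 ± 0.09, adjusted p = 0.00478) and the ornithine aminotransferase Oat (0.62 ± 0.14, adjusted p = 0.0105) were higher.

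Lists of inflammation, stress responses and several other functions gave almost no calls for the extracts. Of all genes tested 2.34% were called, so for lists of 15 to 31 genes 0 calls lies near that share. None of 20 acute-phase, 28 interferon-stimulated, 23 unfolded protein response, 15 heat shock, 19 circadian clock, 30 complement and coagulation, 31 oxidative phosphorylation or 20 antigen presentation genes was called in the pooled fit by edgeR. At an unadjusted p under 0.05 these lists held 1, 1, 7, 1, 2, 1, 3 and 1 genes in the same order, against 2284 of all 14786 genes. Above 0 in the pooled fit were 15, 13, 5, 12, 6, 19, 22 and 9 genes, against 7624 of all 14786. The unfolded protein response genes had a pooled median of −0.16, with 2 of 23 above 0 without LPS and 7 after LPS. Of the 28 interferon-stimulated genes, 7 were above 0 without LPS and 19 after LPS. DESeq2 called 1 of the unfolded protein response genes, and neither DESeq2 nor voom called any other gene of these lists. With the 5 libraries left out edgeR called 1 unfolded protein response gene, Dnajb11 (adjusted p = 0.0232), and 1 circadian clock gene, Per2 (adjusted p = 0.0471), both lower. Of 16 cytokine, chemokine and adhesion genes tested only Selp, P-selectin, was called (0.38 ± 0.10, adjusted p = 0.0211), and not without the 5 libraries (adjusted p = 0.068). Lbp, the LPS-binding protein, had a pooled change of 0.06 ± 0.28, adjusted p = 0.956 and A2m one of 0.03 ± 0.47, adjusted p = 0.989. These average over strata of opposite sign, none called by edgeR. Lbp changed by 0.49 without LPS and −0.32 after LPS, and A2m by 1.66 and −0.77. Of the 20 acute-phase genes, 16 were above 0 without LPS and 5 after LPS. The values include LPS_EF 7 and LPS_EF_RD 6, with low A2m and Lbp for their label, and EF_RD 1 and EF 1, with raised A2m. Of 45 ribosomal protein genes 1 was called, Rps26 (0.27 ± 0.08, adjusted p = 0.0467), which has many near copies and lost its call in 24 of 38 single omissions. The list had 42 of 45 values above 0 and a median of 0.11. At an unadjusted p under 0.05, 16 of the 45 passed. DESeq2 called 3 and voom 1, and with the 5 libraries left out edgeR called 3, all higher.

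Markers of the other cells of the liver gave few calls, as did all genes tested, of which 2.34% were called. None of 16 Kupffer cell and macrophage, 9 neutrophil and monocyte, 15 endothelial, 15 lymphocyte or 8 erythroid markers tested was called by edgeR. At an unadjusted p under 0.05, 2 endothelial markers and 0 of the others passed, and DESeq2 called 2 endothelial markers. By edgeR 1 of 15 stellate cell markers, the retinol-storing enzyme gene Lrat (−0.43 ± 0.11, adjusted p = 0.0229), and 1 of 11 cholangiocyte markers, Anxa4 (−0.27 ± 0.07, adjusted p = 0.0173), were lower. Summed Kupffer cell markers had a median of 745 CPM in EF-containing livers without LPS, against 618 CPM in control livers, and of 1419 CPM after LPS, against 1174 CPM in LPS livers. The ranges overlapped in both strata (331 to 951 against 434 to 857 CPM, and 881 to 1756 against 1006 to 1470.1 CPM). Among single omissions, Anxa4 lost its call without control 5 (adjusted p = 0.053), a library in which cholangiocyte markers summed to 204 CPM against at most 107 CPM elsewhere, and Lrat without control 7 or LPS 5 (adjusted p up to 0.0559).

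**Figure D5:**
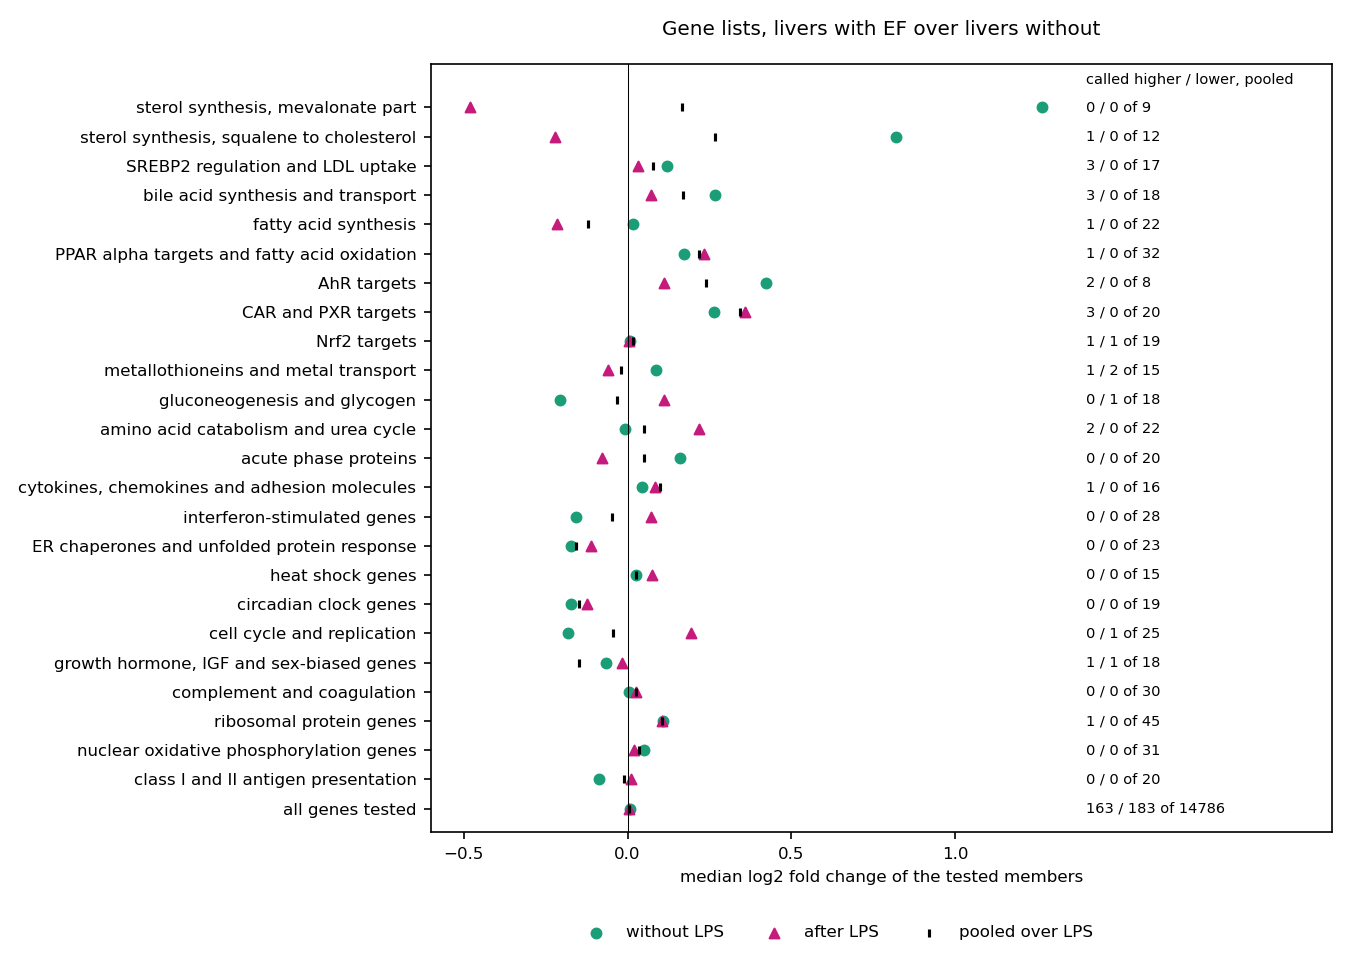
Median log2 fold change of the tested members of 24 gene lists and of all genes, without LPS (green circles), after LPS (magenta triangles) and pooled (black bars), with the pooled calls at the right. The 2 sterol synthesis lists have medians of 1.26 and 0.82 without LPS and −0.48 and −0.22 after LPS, and no other list has a median beyond 0.42 in size.

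The count from the test among the 3 EF-containing treatments moved with the setting. With 4 or 5 livers per treatment, a missing call does not show likeness. By edgeR the test called 63 genes (0.426%), but 11 without EF_RD 1 and 7 without the 5 libraries. It called 117 to 120 genes without any 1 of EF_RD 2, 3 or 4, 233 by DESeq2 and 5 by voom. Of the 6 with the smallest p that met the naming rule, Actn3, Pgam2, Klhl41 and Ttn are muscle genes and Krt4 is a keratin of squamous epithelium. Ttn, titin, had 219 CPM in EF_RD 1, 25.3 CPM in LPS 3 and at most 1.17 CPM elsewhere, and Krt4 had 123 CPM in EF_RD 1 and at most 2.56 CPM elsewhere. Of the 346 genes called in the pooled comparison 2, Cyp1a1 and Cyp1a2, were also called in the test among treatments, and 2, Srebf2 and Slc13a3, were called in the interaction. Set against its own group, each treatment gave 136 calls in EF (0.92%), 92 in EF_PF (0.622%) and 225 in EF_RD (1.52%), and after LPS 16 (0.108%) in LPS_EF, 6 (0.0406%) in LPS_EF_PF and only 2 (0.0135%) in LPS_EF_RD. These comparisons share their control or LPS livers.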

How the data were processed

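RNA of 38 livers was sequenced by the submitters. The authors deposited whole-number counts of read pairs for 31038 gene names, made with featureCounts 2.0.6 on a RefSeq annotation of rn6, with no strand setting and without multi-mapping reads, per the file headers. Reads of overlapping antisense genes therefore cannot be told apart, and near-identical copies are uncertain. STAR, RSEM and mRatBN7.2 also stand in the submitters' processing notes; positions are given as rn6 because the count header names it. The deposited TPM table was not used. All columns matched a sample, and 7071 genes were at 0 in every library.

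Genes were kept by filterByExpr (minimum count 10, minimum total 15; 14786 genes) and tested with edgeR 4.0.16 (R 4.3.3) by its quasi-likelihood test, with TMM scaling. The pooled fit has terms for LPS and any EF, the strata and interaction come from 1 mean for each of the 4 combinations, and the test among treatments from 1 mean per group. P-values are two-sided and adjusted by Benjamini-Hochberg over all genes tested. The fits were tested on simulated counts. The samples are described as biological replicates in the design text; counting has no molecular identifiers, so read pairs are not independent molecules.

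Named genes are the 12 highest and 12 lowest log2 fold changes among genes called with and without 5 libraries that stand apart (at least 2 CPM, proper symbols), up to 5 called members per list, and up to 6 genes each from the interaction and the test among treatments. Single values of some genes are not reported here. The members and the 34 gene lists (669 of 676 entries found) were chosen with earlier results of these data known. Alternatives were RLE and total-count scaling, DESeq2 1.42.0, limma 3.58.1 (voom), no low-count filter, a minimum count of 50, a replicate block, equal weights for the treatments, single extracts, single strata and leaving out each library. Promoters are RefSeq, GRCr8, matched by symbol.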

Additional observations from a re-analysis of the deposited data

Results flagged for a closer look

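Single libraries lay far from the rest of their group for 18 of 240 gene-by-group sets and 7 of 16 marker sums, judged by the gap of the highest or lowest library to its nearest neighbour relative to the whole range. Chance alone gives about 1 in 20 of the gene-by-group sets. All 7 flagged marker sums were of exocrine pancreas or skeletal muscle. Libraries had already been seen to stand apart in these lists, so their count is not set against chance. The cause of each was not tested.

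Cyp1a1 was high in EF 1 at 6.78 CPM and in LPS_EF_PF 6 at 78.1 CPM, and Cyp1a2 was high in LPS_EF_PF 6 at 1532 CPM and in LPS_EF 7 at 1420 CPM. LPS_EF 7, which has low A2m for its label, was also high for Eif4ebp3 at 54.9 CPM. LPS_EF_RD 6, the other such library, was high for Cyp2b2 at 87.7 CPM. EF_RD 1, which holds muscle RNA, stood apart for Mt1 at 580 CPM, Gsta3 at 14.6 CPM, skeletal muscle markers at 5184 CPM and exocrine pancreas markers at 193 CPM.

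LPS 3 stood apart for Aldh1a1 at 84.0 CPM, Aldh1a7 at 1.52 CPM, skeletal muscle markers at 511 CPM and exocrine pancreas markers at 2116 CPM. Control 5 stood apart for exocrine pancreas markers at 3697 CPM and skeletal muscle markers at 3.63 CPM, and EF 1 for skeletal muscle markers at 3.55 CPM. Among the other genes, Gsta3 had 46.8 CPM in EF 5, Aldh1a1 had 156.5 CPM in EF_PF 5, and Acsm2a had 59.6 CPM in EF_RD 3 and 69.9 CPM in LPS_EF_RD 8. Ltc4s had 6.02 CPM in LPS_EF 4, Kcnj15 54.9 CPM in control 7, Tle3 13.4 CPM in control 6, and Hmgcs1 685.7 CPM in EF_RD 3.

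The extract effect differed between livers after LPS and livers without LPS, by the interaction in edgeR's quasi-likelihood test, for 6 named genes. The differences in log2 fold change, after LPS minus without LPS, were −1.93 for Mvd, −1.83 for Hmgcs1, −1.88 for Sqle, −2.08 for Msmo1, −1.15 for Mmab and −0.69 for Srebf2.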

How the results depend on the processing

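The pooled count of 346 stayed within 1.5 times under the other settings except DESeq2 (567 calls), EF alone and LPS_EF only (152) and EF_RD and LPS_EF_RD only (110), and it was 250 to 469 when single libraries were left out. Without LPS the count of 186 was 297 by DESeq2 and 95 when only libraries without LPS were fitted, and 89 to 244 over single omissions. After LPS the count of 22 was 40 without the 5 libraries, 68 by DESeq2, 8 by voom, 44 with no low-count filter, 9 with a minimum count of 50, and 12 to 57 over single omissions. The interaction count of 10 was 28 by DESeq2, 6 with a minimum count of 50, and 0 to 24 over single omissions. The count among treatments of 63 was 7 without the 5 libraries, 233 by DESeq2, 5 by voom, 143 with no filter, 31 with a minimum count of 50, and 11 to 120 over single omissions. The cause of these moves was not tested. Without the 5 libraries Cpb1 turned to 0.41 (adjusted p = 0.681). Of the other comparisons of named genes with a setting, 629 kept direction and call and 98 lost the call; over single omissions 2323 kept both, 140 lost the call and 2 gained one.

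With the replicate number as a block the counts were 437 pooled, 140 without LPS, 9 after LPS, 0 for the interaction by edgeR (703 genes at an unadjusted p under 0.05) and 5 among treatments. Over 88 same-numbered pairs the correlation of deviations had a median of 0.0185 (−0.247 to 0.453), and 24 were over 0.1. Over 543 other-numbered pairs the median was 0.0011 (−0.448 to 0.51), and 105 were over 0.1. Whether the numbers mark pairs was not tested.

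Libraries held 19716622 to 35835012 read pairs, and the precision of each stratum is limited by its 5 livers without extract.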

Other observations

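Called genes lay next to each other in the genome more than once, a pattern looked for after the values were seen and not tested. Of the 163 genes called higher in the pooled comparison, 33 had a directly neighbouring tested gene that was also called higher, and of the 183 called lower, 18 had one called lower. Over all genes tested 1.1% were called higher and 1.24% lower. The number of called neighbours to be found among genes in general was not computed. Families of related or overlapping genes are among these neighbours, so the counts are not read as a trait of the extract effect. The longest such run, of 4 genes, surrounds Cyp8b1 on rn6 chromosome 8. It begins with Ackr2 (130526521 to 130543566), followed by Cyp8b1 (130548418 to 130550388), LOC102551973 (130554737 to 130557676) and Fam198a (130581072 to 130614118). Cyp8b1 is on the minus strand and the other 3 on the plus strand.

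LOC102551973 had 1.59 to 3.98 CPM (median 2.73) in EF-containing livers without LPS, against 0.478 to 0.948 CPM in control livers, and 1.02 to 2.81 CPM (median 1.67) after LPS, against 0.44 to 1.07 CPM in LPS livers. Its pooled change was 1.64 ± 0.19, adjusted p = 1.09e-06 by edgeR. Fam198a had 1.06 to 3.44 CPM (median 2.11) in EF-containing livers without LPS, against 0.23 to 0.791 CPM in control livers, and 0.679 to 2.6 CPM (median 1.29) after LPS, against 0.406 to 1.59 CPM in LPS livers (1.21 ± 0.25, adjusted p = 0.00434). The next tested genes outside the run did not pass the test: LOC103690474 on the side of Ackr2 (0.56 ± 0.36, adjusted p = 0.478) and Pomgnt2, which begins at 130615482, on the side of Fam198a (0.05 ± 0.09, adjusted p = 0.858). All 4 genes of the run were also called without the 5 libraries. The levels of the 3 neighbours were far below that of Cyp8b1, whose EF-containing livers without LPS had a median of 1337 CPM. The counts carry no strand, and the part of shared reads in these changes was not tested.

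The other neighbours among genes called higher include Abcg5 with Abcg8, Cyp1a2 with Cyp1a1, Acsm5 with Acsm2a, Ugt1a5 with Ugt1a3, and the mitochondrially encoded ATP8, ATP6 and COX3. Several of these are families with close or overlapping copies, for which counts are uncertain.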
